A study of Mus musculus with 6 samples.

Results

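The genes of DNA replication and S phase were taken as a set of 54 named genes, among 28312 genes with a name on the array. Each gene was found through the non-control probes that carry its name, which held for 51 of the 54, and 3 (Orc1, Orc2 and Orc6) were found through the RefSeq accession of a probe with an older symbol. RNA was measured on 6 single-colour arrays of myeloid cells from C57BL/6N wild-type mice, all taken 3 days after acute myocardial infarction. Of the arrays, 3 (heart 1, heart 2 and heart 4) hold cells of the infarcted left ventricle and 3 (spleen 1, spleen 2 and spleen 4) hold cells of the spleen, each organ having been analysed on its own. The cells had been sorted by flow cytometry as CD45high and CD11bhigh and as low for B220, Thy-1.2, NK-1.1, DX5 and Ly6G, which mark lymphocytes, natural killer cells and neutrophils. All mice were infarcted and none carried a transgene or deletion that the labels name, so the comparison is between organs of infarcted animals and has no uninjured control. The age and sex of the mice were not given in the sources used here.

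Chromosomes are copied in S phase. Before it, the origin recognition complex, Cdc6 and Cdt1 load the ring-shaped MCM helicase onto origins, a step called licensing. Kinases then switch the helicase on together with Cdc45 and the GINS complex, polymerases copy the strands behind it, and a sliding clamp keeps them on the template. The E2F transcription factors drive many of these genes as a cell commits to divide, and in blood-forming tissue the genes are known to be high in precursors and low in monocytes and macrophages that have left the cycle. After an infarct the spleen is known as a reservoir of monocytes and as a site where blood cells are made outside the marrow.

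Of the 54 genes, 51 were measured well enough to be tested, 20 of them had lower RNA levels in heart than in spleen, 1 (Tyms) had a higher level and 30 did not pass the test. Levels are log2 signals set to 0 at the 75th percentile of the same array, so that a step of 1 is a change of 2-fold. A gene was called where its adjusted p was below 0.05 in limma, with Benjamini-Hochberg adjustment over all 16365 tested genes. The 20 genes called lower were 39.2% of the 51, against 6.46% of all tested genes. The 1 gene called higher stands beside 9.04% of all genes. The median difference of the 51 genes, heart minus spleen, was −1.46, which is a level 2.76-fold higher in spleen, against 0.11 over all genes. The differences ran from −5.48 for Rrm2 to 1.32 for Tyms, and 49 of the 51 lay below 0. All 3 hearts lay below all 3 spleens for 39 of the 51 genes (76.5%, against 16.4% of all genes), and all 3 hearts lay above all 3 spleens for 1 (against 24.6% of all genes). The 3 genes that were not tested were Cdc7 and Ccne2, well above background on spleen 2 alone, and Orc1, whose spot on spleen 4 was marked as an outlier by the scanner program and left out.

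**Figure D1:**
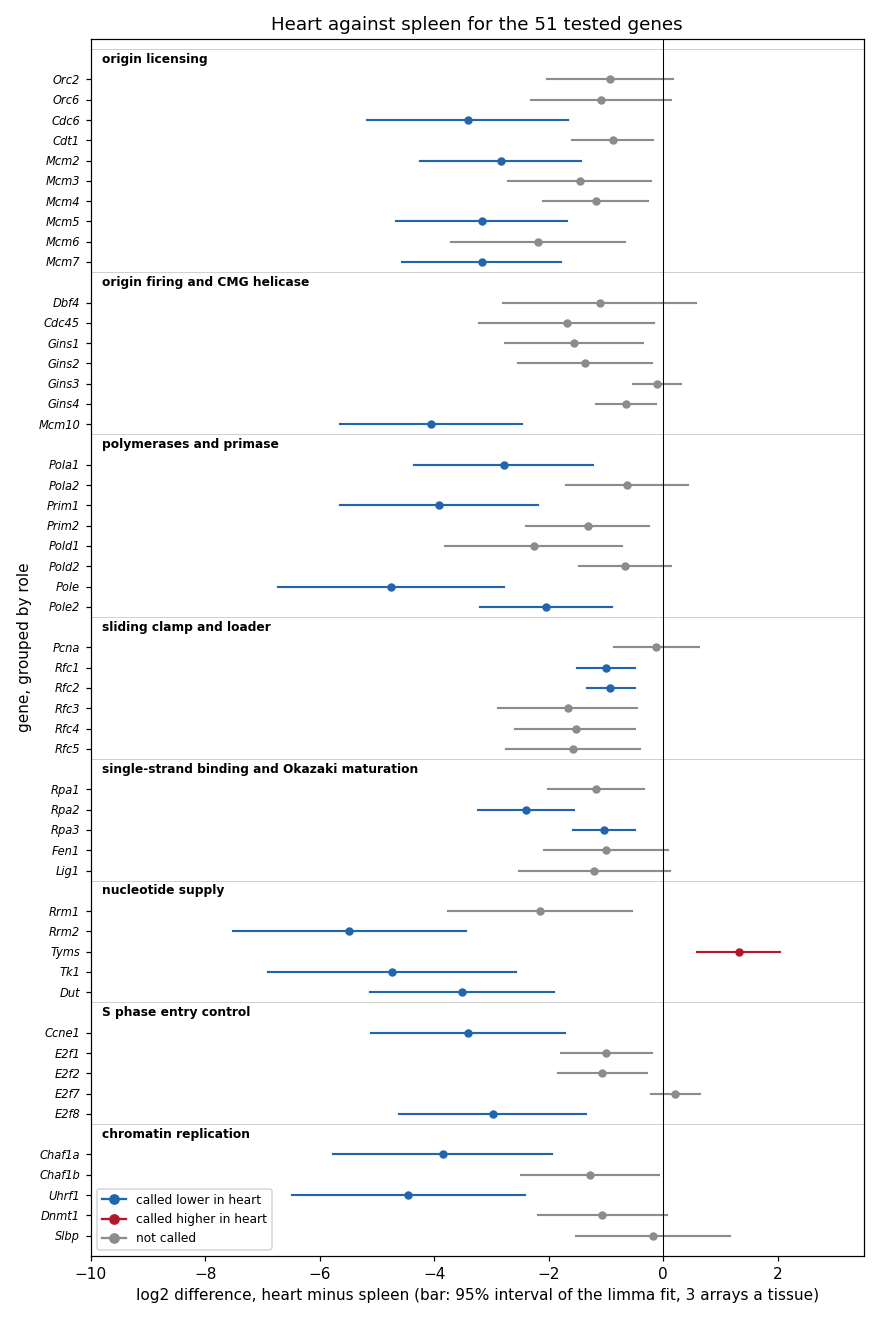
Difference in log2 level, heart minus spleen, for the 51 tested genes by role, with the 95% interval of the limma fit over 3 arrays a tissue. The 20 genes called lower (blue) are spread over all 8 roles, Tyms (red) is the 1 gene called higher, and 12 of the grey intervals lie across 0, those of Gins3, Pcna, E2f7 and Slbp among them.

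The spleen arrays did not agree among themselves, and this touches every result below. Spleen 1 and spleen 2 were on the same slide and have the same, earlier date in their titles. Spleen 4 was on a different slide and has a later date. What sets spleen 4 apart from the other spleens therefore cannot be told apart from slide or date. Over the 51 genes the median SD was 1.06 log2 units between the 3 spleens and 0.13 between the 3 hearts, the spleen SD being the larger for 51 of 51. Over all tested genes the medians were 0.40 in spleen and 0.14 in heart. Spleen 2 was the highest, spleen 1 the middle and spleen 4 the lowest of the spleens for 44 of the 51 genes (86.3%), an order that 17.4% of all genes had. The median excess over the mean of the hearts was 2.43 in spleen 2 (5.39-fold), 1.53 in spleen 1 (2.89-fold) and 0.57 in spleen 4 (1.48-fold). The same medians over all genes were −0.07, −0.22 and −0.02. Spleen 4, the array nearest to the hearts, lay above all 3 hearts for 40 of the 51 genes, while spleen 1 and spleen 2 each did so for 48. Over all genes those shares were 39.2%, 30.5% and 34.8%.

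**Figure D2:**
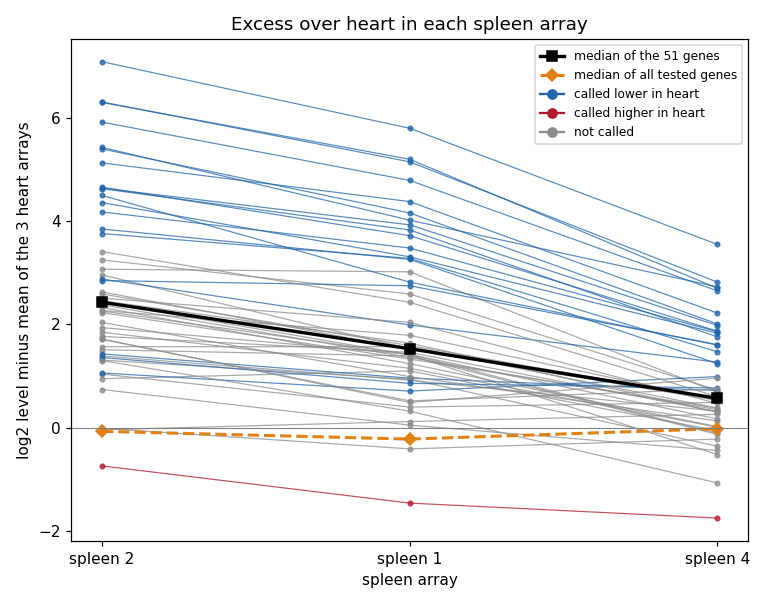
Log2 level in each spleen array minus the mean of the 3 heart arrays, a line for each of the 51 genes, with the median of the 51 genes (black squares) and of all tested genes (orange diamonds). The median of the 51 genes goes from 2.43 in spleen 2 to 1.53 in spleen 1 and 0.57 in spleen 4, while the median of all genes stays between −0.22 and −0.02.

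Summed levels of granulocyte precursor and neutrophil secondary granule markers had the spleen order of these genes, with every spleen above the hearts. The other lists of cell type markers did not show both. Granulocyte precursor markers, the genes of primary granules and their regulators, had a summed level of 9.92 to 10.6 times the 75th percentile in the hearts. In spleens 1, 2 and 4 it was 105, 300 and 25.2, the same order as the summed level of the 54 genes (224, 355 and 137, against 97.6 to 108 in the hearts). A sum adds signals of different probes, so bright genes weigh most. Gins3, which was not called, was the brightest of the 54 on every array, at 5.25 to 5.48 in the hearts and 5.30 to 5.60 in the spleens. Of the 9 precursor markers tested, 7 were called lower in heart, and 2 of the 10 on the array, Ms4a3 and Prss57, were above background on none of the hearts. Stem and progenitor markers summed to 1.71 to 2.37 in the hearts and 8.04, 8.02 and 4.69 in spleens 1, 2 and 4, with 2 of 7 called lower (Kit and Myb). Secondary granule markers of neutrophils summed to 136 to 192 in the hearts and to 591, 980 and 440 in spleens 1, 2 and 4, again the same order. Of these, 5 of 9 were called lower, although the gate had kept cells low for Ly6G.

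Markers of B cells, of T and NK cells and of erythroid cells were highest in spleen 1. The sums for B cells and for T and NK cells were above the hearts in the other spleens too, but not every gene was. Relative to the heart mean, spleens 2 and 4 were at −0.24 and −0.45 for Pax5, 0.10 and −0.23 for Cd79a and 0.06 and −0.11 for Cd3e. B cell markers summed to 102 in spleen 1, against 3.46 to 4.17 in the other spleens and 0.844 to 1.31 in the hearts. T and NK cell markers summed to 80.4, against 2.91 to 3.5 and 0.862 to 1.02, and erythroid markers to 206, against 10.2 to 26.1 and 9.40 to 44.7. Limma called 0 of 5 B cell markers lower in heart (3 at an unadjusted p under 0.05), 0 of 6 erythroid markers (1) and 1 of 5 T and NK markers, Gzma (−3.74 to −4.13 in the hearts, 5.26, 0.62 and 0.58 in spleens 1, 2 and 4). Fibroblast markers (1.55 to 4.97 in heart, 0.222 to 0.346 in spleen) and cardiomyocyte markers (0.517 to 0.872 and 0.21 to 0.286) were higher in the hearts, with 4 and 3 called. The 10 monocyte and macrophage markers, among them Ptprc (CD45), Itgam (CD11b) and Csf1r, were well above background on all 6 arrays and summed to 366 to 429 in the hearts and 179, 337 and 395 in spleens 1, 2 and 4. Of these 10, Fcgr1 (2.25, limma adjusted p = 0.0384) and Mertk (3.70, 0.0261) were called higher in heart, and 5 were higher at an unadjusted p under 0.05. The summed levels of plasma cell markers (50.9 to 60.4 in heart, 46.9 to 55.8 in spleen) overlapped between the tissues, with Xbp1 the brightest of the list in the hearts. Within that list Igj (−7.80, limma adjusted p = 0.0326; above background on 1 heart) and Irf4 (−2.38, 0.0214) were called lower and Sdc1 (4.87, 0.00778) higher, 3 calls of 4 tested. Dendritic cell markers overlapped in their sum (44.4 to 54.8 and 37.2 to 46.8), with Siglech the brightest on every array. Limma called 0 of 6 (3 at an unadjusted p under 0.05). The part of these other cells in the levels of the replication genes was not tested. In bulk samples such as these, fewer cells of a type and less RNA per cell cannot be told apart.

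**Figure D3:**
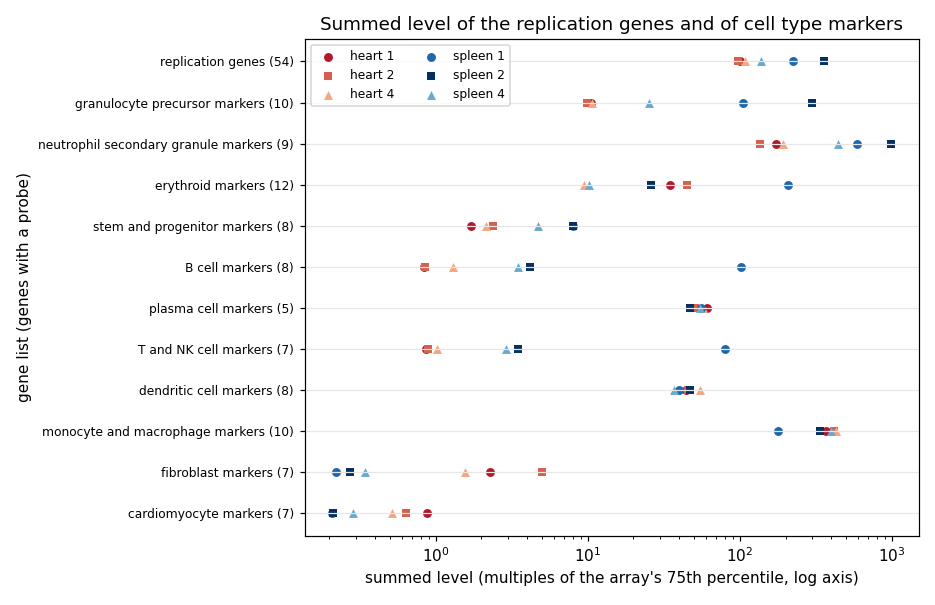
Summed level of the 54 replication genes and of 11 lists of cell type markers on each array, in multiples of the array's 75th percentile on a log axis. The granulocyte precursor markers follow the order of the replication genes (spleen 2 at 300, spleen 1 at 105, spleen 4 at 25.2, hearts at 9.92 to 10.6). Neutrophil secondary granule markers do so too in their sum (spleen 2 at 980, spleen 1 at 591, spleen 4 at 440). Bright genes weigh most in a sum, such as Gins3 among the replication genes and Chi3l3 among the secondary granule markers. The B cell, T and NK cell and erythroid markers are highest in spleen 1.

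The differences were also compared within batches, which the labels and file headers give as slides and as a date in the sample titles. Slide 2 is the only slide that holds both tissues, as heart 1 and spleen 4. In that pair 41 of the 51 genes (80.4%) were lower in heart 1, against 47.0% of all genes, with a median difference of −0.56. A fit with slide as a fixed block takes its difference between the tissues from this pair alone. The later date has a single pair, heart 4 and spleen 4, which gave 41 of 51 as well (80.4%, against 49.4% of all genes), with a median of −0.47. Both of these pairs rest on spleen 4, the spleen with the lowest levels. Within the earlier date, which leaves 2 arrays a tissue, 30 of the 51 genes were called lower, against 4.46% of all genes, with a median of −2.0. With slide as a fixed block limma called 0 of the 51 genes, 18 had an unadjusted p under 0.05, and the median was −0.56. Of all genes 0.0796% were called lower in that fit.

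The number of calls rested on single arrays. Without spleen 4, 43 of the 51 genes were called lower, against 9.84% of all genes, and the median was −2.03. Without spleen 1 the number was 14, against 6.91% of all genes, and without spleen 2 it was 15, against 4.68%. Without heart 1, heart 2 or heart 4, limma called 0 of them each time, so that each of the 20 calls ended in each of these 3 fits. The share of all genes called lower was then 0.684%, 0.721% and 0.880%, or 112, 118 and 144 genes in place of 1057. The genes with an unadjusted p under 0.05 then numbered 31, 30 and 33, and the lowest adjusted p among the 51 was 0.0531, 0.0550 and 0.0594. For these and all other counts at an unadjusted p under 0.05 given here, the share of all genes at that threshold is not given. Such counts therefore cannot be set against the rest of the array.

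**Figure D4:**
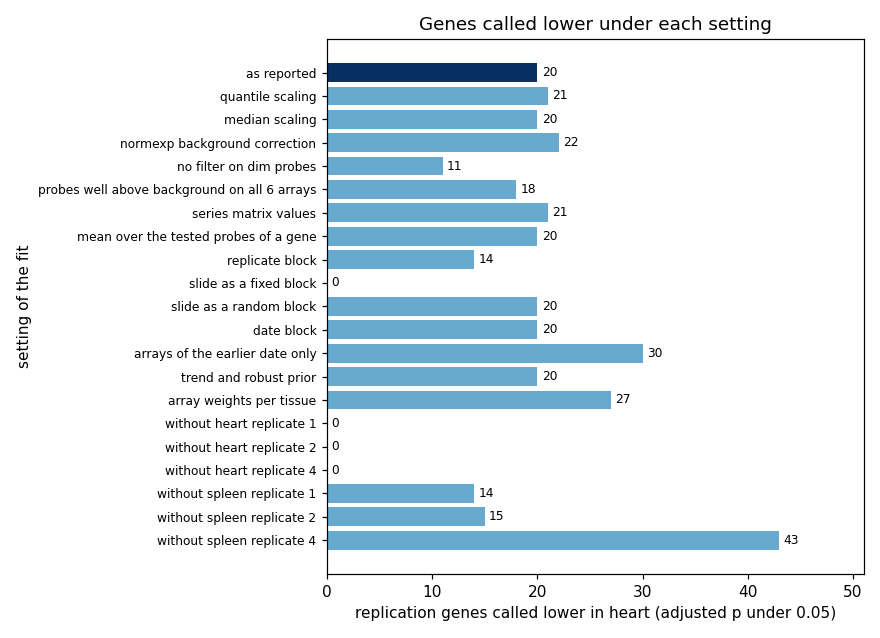
Number of the 51 genes called lower in heart (adjusted p under 0.05) in the fit as reported, with 20 genes, and under each other setting. The number is 0 with slide as a fixed block or with any heart left out, 14 and 15 without spleen 1 and spleen 2, and 43 without spleen 4. The fit with no filter on dim probes covers 54 genes and that on probes above background on all 6 arrays covers 49.

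Promoters are shown for the 4 genes with the lowest adjusted p that hold an E2F-type motif, since the set is known as one of E2F targets and its members moved together. RefSeq promoter windows (GRCm38.p6, 300 bases, 250 before and 50 after a gene's start) were given for 46 of the 54 genes. The E2F motif was taken in 2 spellings, TTTCCCGC and TTTGGCGC, which were searched on both strands. In the 4 windows shown no matches overlapped. In the windows below, written 5′ to 3′ on the gene's strand, the match is in capitals and reads as the reverse complement, GCGGGAAA or GCGCCAAA.
Mcm7 (chr5:138171834-138172133, minus strand): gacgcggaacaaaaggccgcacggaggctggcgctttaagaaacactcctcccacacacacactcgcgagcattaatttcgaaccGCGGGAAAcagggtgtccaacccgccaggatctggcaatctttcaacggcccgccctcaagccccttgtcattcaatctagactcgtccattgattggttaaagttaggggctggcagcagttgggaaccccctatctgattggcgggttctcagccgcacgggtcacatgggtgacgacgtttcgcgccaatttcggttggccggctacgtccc
Mcm5 (chr8:75109259-75109558, plus strand): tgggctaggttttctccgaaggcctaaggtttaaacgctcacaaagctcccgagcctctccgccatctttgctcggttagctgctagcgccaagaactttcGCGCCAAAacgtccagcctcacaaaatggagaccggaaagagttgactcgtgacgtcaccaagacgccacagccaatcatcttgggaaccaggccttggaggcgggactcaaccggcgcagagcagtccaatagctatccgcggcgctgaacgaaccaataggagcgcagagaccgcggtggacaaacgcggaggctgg
Cdc6 (chr11:98907901-98908200, plus strand): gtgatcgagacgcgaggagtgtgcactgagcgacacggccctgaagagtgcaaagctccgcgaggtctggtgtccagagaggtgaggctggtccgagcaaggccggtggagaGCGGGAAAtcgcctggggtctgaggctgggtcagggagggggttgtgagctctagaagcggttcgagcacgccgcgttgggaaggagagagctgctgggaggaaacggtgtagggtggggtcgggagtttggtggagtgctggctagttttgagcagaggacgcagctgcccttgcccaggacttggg
Pole2 (chr12:69228141-69228440, minus strand): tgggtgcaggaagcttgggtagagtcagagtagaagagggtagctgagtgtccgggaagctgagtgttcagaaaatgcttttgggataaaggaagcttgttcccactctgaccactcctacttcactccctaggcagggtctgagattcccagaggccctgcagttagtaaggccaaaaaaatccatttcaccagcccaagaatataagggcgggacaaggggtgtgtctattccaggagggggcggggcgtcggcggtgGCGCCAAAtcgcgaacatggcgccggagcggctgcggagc
Positions of the match, counted from the start, are −165 for Mcm7, −149 for Mcm5, −138 for Cdc6 and 11 for Pole2. Of the 57 windows of these genes, 14 held a match (24.6%), against 1.56% of all 32851 windows of the same length in the table. By gene, 14 of 46 (30.4%) held one, against 1.80% of all genes with a window. Of the 14, 5 were called lower, Pola1 being the fifth, with a median difference of −1.86. Of the 30 tested genes whose windows held no match 13 were called lower, with a median of −1.41. The genes with a match that were not called were Pold1, Mcm6, Rfc3, E2f2, Cdt1, Mcm3, Dnmt1, E2f7 and Gins3. A match describes the letters of the window and does not show binding.

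Of the 11 licensing genes, 10 were tested, and the helicase subunits Mcm2, Mcm5 and Mcm7 and the loader Cdc6 were called lower in heart, with a median of −1.82 over the 10. Mcm7 (probe at mm9 chromosome 5, 138605925 to 138605984) had log2 levels of 0.02, −0.06 and 0.48 in hearts 1, 2 and 4 and of 3.63, 4.33 and 2.00 in spleens 1, 2 and 4. Its 3 hearts lay together and below every spleen, with spleen 4 the nearest. Heart averaged 0.15 ± 0.29 (SD, n = 3) and spleen 3.32 ± 1.19 (SD, n = 3), a difference of −3.17 ± 0.58 (SE, limma adjusted p = 0.0189), or 9.03-fold. Mcm5, a further subunit of the ring, was at −1.98, −1.40 and −1.27 in the hearts and at 1.76, 2.81 and 0.28 in spleens 1, 2 and 4. The groups did not overlap, and spleen 4 was again the lowest spleen, for a difference of −3.17 ± 0.62 (limma adjusted p = 0.0224). Mcm2 differed by −2.84 (limma adjusted p = 0.0258).

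Cdc6, the ATPase that brings the helicase to the origin, was above background on none of the hearts and was at least 4.65-fold higher in spleen (limma adjusted p = 0.0284). A further Cdc6 probe was likewise above background on 3 spleens and no heart. The other ring subunits did not pass, at −2.19 for Mcm6 (limma adjusted p = 0.0648), −1.46 for Mcm3 and −1.18 for Mcm4, nor did the loader Cdt1 at −0.88 and the origin recognition subunit Orc6 at −1.08. Orc2, of the same complex, had the highest adjusted p of the group. Its levels were −3.05, −3.40 and −2.92 in hearts 1, 2 and 4 and −1.73, −1.61 and −3.25 in spleens 1, 2 and 4. Spleen 4 lay among the hearts and the other spleens above them, and the difference was −0.93 (95% interval −2.02 to 0.17, limma adjusted p = 0.219). Without spleen 4, all 10 genes were called lower. The calls of Cdc6 and Mcm2 ended without spleen 1 (adjusted p 0.0613 and 0.0558) and without spleen 2 (0.0576 and 0.0568).

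Among the 8 genes of origin firing and of the active helicase, Mcm10, which helps the loaded helicase to start, was the one called lower of 7 tested. Its levels were −4.32, −3.66 and −3.57 in hearts 1, 2 and 4 and 0.17, 1.59 and −1.12 in spleens 1, 2 and 4. Hearts and spleens did not overlap, and the spleens spread over more than the hearts. The difference was −4.06 ± 0.66 (limma adjusted p = 0.0144), or 16.7-fold. GINS has 4 subunits that act as 1 complex. Gins1 was at −1.31, −1.53 and −1.35 in the hearts and at 0.13, 1.24 and −0.87 in spleens 1, 2 and 4, with no overlap, a difference of −1.56 that did not pass (limma adjusted p = 0.0876; 0.0118 without spleen 4). Gins2 was at −1.36 and Gins4 at −0.64, neither called.

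Gins3 was flat. It had 5.27, 5.25 and 5.48 in hearts 1, 2 and 4 and 5.45, 5.30 and 5.60 in spleens 1, 2 and 4. The tissues overlapped, and this was the one gene of the 51 with spleen 4 as its highest spleen. The difference was −0.11 (95% interval −0.53 to 0.31, limma adjusted p = 0.701), and 0.00 with arrays scaled to their median. Cdc45, the remaining partner of the helicase, was at −1.68, and Dbf4, the activating subunit of the Cdc7 kinase, at −1.11 with spleen 4 below the hearts. Without spleen 4, 5 of the 7 genes were called lower, Gins3 and Gins4 being those that were not. Cdc7 itself was well above background on 1 array of the 6.

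The polymerase genes gave 4 calls of 8, with a median of −2.15. Pole, the catalytic subunit of the leading-strand polymerase, was at −5.06, −5.13 and −5.18 in hearts 1, 2 and 4 and at 0.03, 1.18 and −2.31 in spleens 1, 2 and 4. It was above background on every spleen and on none of the hearts. It was at least 23.9-fold higher in spleen (limma adjusted p = 0.0165). Another Pole probe was above background on no array and was not tested. Pole2, the partner of Pole, differed by −2.05 (limma adjusted p = 0.0353).

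Prim1, the catalytic subunit of the primase that starts each new strand, was at −3.85, −3.16 and −3.59 in hearts 1, 2 and 4 and at 0.85, 1.59 and −1.31 in spleens 1, 2 and 4. No spleen came down to the hearts, and the difference was −3.91 ± 0.72 (limma adjusted p = 0.0195), or 15.0-fold. Pola1, the polymerase subunit that works with primase, differed by −2.78 (limma adjusted p = 0.0358). The other subunits of that complex had Prim2 at −1.31 (limma adjusted p = 0.0995) and Pola2 at −0.63. Pola2 had −2.50, −2.95 and −2.43 in the hearts and −1.69, −1.32 and −2.98 in spleens 1, 2 and 4. Its spleen 4 was the lowest of the 6 arrays and its other spleens the highest, with a 95% interval from −1.70 to 0.44 (limma adjusted p = 0.379). Of the lagging-strand polymerase, Pold1, the catalytic subunit, was at −2.26 (limma adjusted p = 0.0631) and Pold2 at −0.66. Without spleen 4, all 8 were called lower. The calls of Pola1 and Pole2 ended without spleen 1 (adjusted p 0.0785 and 0.0652) and without spleen 2 (0.0756 and 0.0670).

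The sliding clamp Pcna and the loader subunits that place it on DNA gave smaller differences, with 2 calls of 6 and a median of −1.27. Rfc2 was at 0.87, 0.83 and 0.90 in hearts 1, 2 and 4 and at 1.57, 1.92 and 1.86 in spleens 1, 2 and 4. The 3 spleens lay close together here, spleen 4 above spleen 1, and all above the hearts. The difference of −0.92 ± 0.17 (limma adjusted p = 0.0202) is 1.89-fold, the smallest of the 20 genes called lower. Rfc1, the large subunit, was at 0.52, 0.60 and 0.50 in the hearts and at 1.39, 1.90 and 1.31 in spleens 1, 2 and 4, again with no overlap, a difference of −1.0 ± 0.21 (limma adjusted p = 0.0272). Rfc3, Rfc4 and Rfc5 had larger differences between −1.67 and −1.53 with wider spleen values, and did not pass (limma adjusted p 0.0755, 0.0611 and 0.0773). They were called without spleen 4, which made 5 of 6.

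Pcna did not follow them. It was at 3.53, 3.54 and 3.51 in hearts 1, 2 and 4 and at 3.58, 4.26 and 3.09 in spleens 1, 2 and 4. The hearts were nearly equal and lay inside the range of the spleens. The difference was −0.12 (95% interval −0.86 to 0.62, limma adjusted p = 0.828), with −0.39 without spleen 4 and 0.19 without spleen 2. The RefSeq table lists pseudogenes of Pcna, and whether they share signal on this probe was not tested.

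Of the genes for single-strand binding and for joining the lagging-strand fragments, Rpa2 and Rpa3 were called lower, 2 of 5 with a median of −1.17. Rpa2, a subunit of the protein that coats exposed single strands (probe at mm9 chromosome 4, 132333990 to 132334049), was at −3.17, −3.27 and −3.40 in hearts 1, 2 and 4 and at −0.54, −0.43 and −1.67 in spleens 1, 2 and 4. The hearts lay in a narrow range, spleen 4 was the lowest spleen, and the tissues stood apart. Its difference of −2.40 ± 0.35 (5.29-fold) had the lowest adjusted p of the 51 genes (limma, 0.0105). Rpa3, the smallest subunit, was at 2.19, 2.10 and 2.19 in the hearts and at 3.12, 3.58 and 2.87 in spleens 1, 2 and 4, without overlap, a difference of −1.04 ± 0.22 (limma adjusted p = 0.0290). Rpa1, the large subunit, was at −1.17 (limma adjusted p = 0.0696).

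Lig1, the ligase that seals the fragments, was at 0.72, 0.71 and 0.68 in hearts 1, 2 and 4 and at 1.94, 3.03 and 0.72 in spleens 1, 2 and 4. Spleen 4 was level with the hearts and the other spleens well above, and the difference was −1.20 (95% interval −2.51 to 0.12, limma adjusted p = 0.190). Fen1, the flap nuclease that trims them, was at −1.0. Without spleen 4, all 5 genes were called lower.

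Nucleotide supply had the largest median of the 8 roles, −3.52 over 5 genes, with 3 called lower and 1 higher. Rrm2, the small subunit of ribonucleotide reductase, which is made in S phase and limits the supply of deoxynucleotides (probe at mm9 chromosome 12, 25398824 to 25398883), was at −2.64, −1.86 and −2.23 in hearts 1, 2 and 4 and at 3.56, 4.85 and 1.31 in spleens 1, 2 and 4. The spleens spread widely and still lay far above the hearts. Heart averaged −2.24 ± 0.39 (SD, n = 3) and spleen 3.24 ± 1.79 (SD, n = 3), a difference of −5.48 ± 0.85 (SE, limma adjusted p = 0.0124), or 44.6-fold. In spleen 4 alone it was 3.55 above the heart mean. Tk1, the thymidine kinase of dividing cells, differed by −4.73 ± 0.90 (limma adjusted p = 0.0209), or 26.6-fold.

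Dut, the enzyme that removes dUTP, had −2.44, −2.23 and −1.68 in hearts 1, 2 and 4 and 1.82, 2.52 and −0.14 in spleens 1, 2 and 4, again without overlap, a difference of −3.52 ± 0.67 (limma adjusted p = 0.0208). Rrm1, the large subunit of the reductase, had −0.23, −0.20 and −0.38 in the hearts and 2.17, 3.14 and 0.33 in spleens 1, 2 and 4. No heart reached a spleen, but the difference of −2.15 (95% interval −3.75 to −0.54) did not pass (limma adjusted p = 0.0795; 0.00326 without spleen 4). Tyms, thymidylate synthase (probe at mm9 chromosome 5, 30385578 to 30385637), went the other way. It had 0.34, −0.06 and 0.37 in hearts 1, 2 and 4 and −1.24, −0.52 and −1.53 in spleens 1, 2 and 4. Every heart was above every spleen, with spleen 2 the nearest, for a difference of 1.32 ± 0.30 (limma adjusted p = 0.0337), or 2.50-fold higher in heart. Its call ended without spleen 1 (limma adjusted p 0.0651) and without heart 1, heart 2 or heart 4 (0.133, 0.092 and 0.127). The RefSeq table lists a Tyms pseudogene, and whether that shares signal on this probe was not tested.

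**Figure D5:**
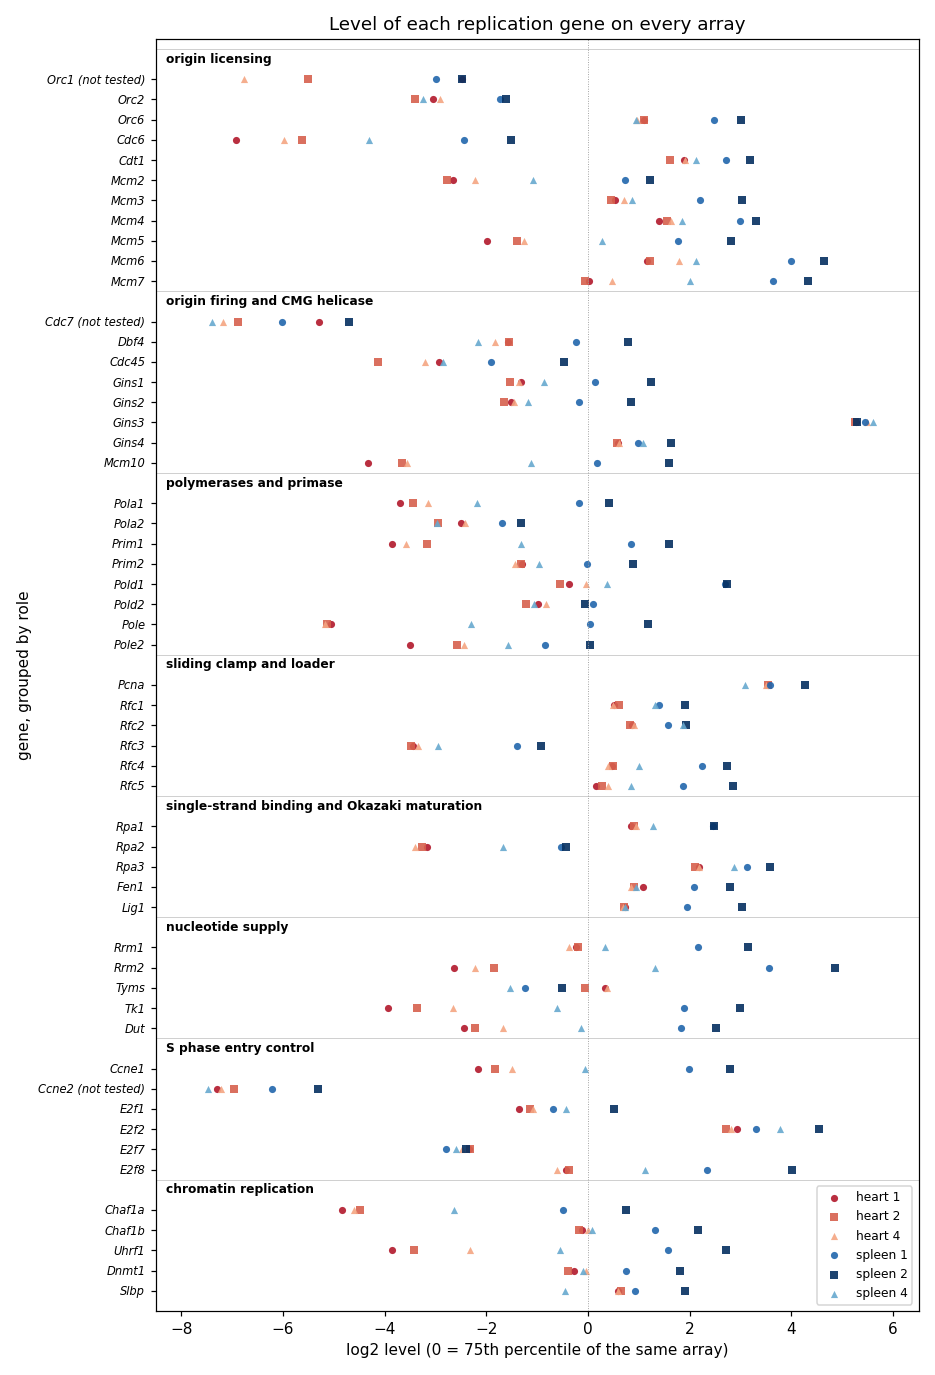
Log2 level of each of the 54 genes on every array (0 is the 75th percentile of the array), hearts in red and spleens in blue, grouped by role. The 3 hearts mostly lie together, spleen 2 is usually farthest to the right and spleen 4 nearest to the hearts. Tyms has its hearts to the right of its spleens. Levels of different genes come from different probes and are not comparable with each other.

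Among the genes that control entry into S phase, Ccne1 and E2f8 were called lower, 2 of 5 tested. Ccne1, the cyclin that activates Cdk2 at the start of S phase, was at −2.17, −1.84 and −1.49 in hearts 1, 2 and 4 and at 1.99, 2.80 and −0.07 in spleens 1, 2 and 4. The groups were apart, and the difference was −3.41 ± 0.71 (limma adjusted p = 0.0262), or 10.6-fold. Another Ccne1 probe gave −1.44 ± 0.68 and did not pass (limma adjusted p = 0.204 over probes). E2f8, a repressor that is itself induced in S phase, was at −0.44, −0.38 and −0.62 in the hearts and at 2.34, 4.02 and 1.12 in spleens 1, 2 and 4. The hearts were again close and below all spleens, a difference of −2.97 ± 0.68 (limma adjusted p = 0.0340). The activators E2f1 and E2f2 were at −0.99 and −1.06 (limma adjusted p 0.0945 and 0.0761), with hearts below all spleens in both. E2f2 was called without spleen 1, and without spleen 4 neither was. The call of Ccne1 ended without spleen 1 (adjusted p 0.0577) and without spleen 2 (0.0525), and that of E2f8 without spleen 1 (0.0622).

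E2f7, the close relative of E2f8, depended on the probe. The probe with the highest level (mm9 chromosome 10, 110219255 to 110219314) had −2.34, −2.32 and −2.48 in hearts 1, 2 and 4 and −2.79, −2.40 and −2.60 in spleens 1, 2 and 4. The tissues overlapped, with a difference of 0.21 (95% interval −0.22 to 0.64, limma adjusted p = 0.465). The other probe (110224331 to 110224390) had −5.09, −4.42 and −6.72 in the hearts and −0.60, 0.99 and −2.76 in spleens 1, 2 and 4. There the hearts were below all spleens, in the spleen order of most of the set, with a difference of −4.62 ± 1.02 (limma adjusted p = 0.0321 over the 21801 tested probes). It was well above background on 1 heart and on 3 spleens. Of the 54 genes, 10 had a pair of probes. For 7 of them both were tested, and 6 of these pairs had differences of 1 sign, E2f7 being the exception. Where the probes lie among the exons of the gene was not analysed here.

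Of the 5 genes that restore chromatin behind the fork, 2 were called lower, with a median of −1.28. Uhrf1, which reads half-methylated DNA and brings in the maintenance methyltransferase, was at −3.86, −3.43 and −2.33 in hearts 1, 2 and 4 and at 1.58, 2.71 and −0.56 in spleens 1, 2 and 4. The highest heart, heart 4, stayed below the lowest spleen, spleen 4. The difference was −4.45 ± 0.85 (limma adjusted p = 0.0209), or 21.9-fold. Another Uhrf1 probe was above background on 2 spleens and no heart and was not tested. The methyltransferase Dnmt1 was at −1.06 with overlapping tissues (limma adjusted p = 0.178). Chaf1a, the large subunit of the histone chaperone CAF-1, was at −4.84, −4.49 and −4.61 in the hearts and at −0.49, 0.75 and −2.64 in spleens 1, 2 and 4. It showed no overlap, for a difference of −3.85 ± 0.80 (limma adjusted p = 0.0261), which ended without spleen 1 (adjusted p 0.0568). Its partner Chaf1b was at −1.28 (limma adjusted p = 0.138).

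Slbp, which binds the stem-loop of histone mRNAs, was at 0.59, 0.64 and 0.59 in hearts 1, 2 and 4 and at 0.92, 1.91 and −0.46 in spleens 1, 2 and 4. The hearts were nearly equal and lay between spleen 4 and spleen 1, and the difference of −0.18 (95% interval −1.53 to 1.17, limma adjusted p = 0.854) was −0.81 without spleen 4 and 0.37 without spleen 2. Slbp was the one chromatin gene of the 5 not called without spleen 4. The widths of these intervals differ. Those of Gins3, Pcna and the E2f7 probe with the highest level stay within 1 log2 unit of 0, the other E2f7 probe being at −4.62. That of Slbp allows a change of more than 2-fold in both directions.

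A further 3 lists show the same comparison in genes around the set. Of 39 other replication genes, 35 were tested, 8 were called lower and 0 higher by limma (15 lower and 2 higher at an unadjusted p under 0.05), with a median of −0.68, where 6.46% of all genes were called lower. Ticrr, which helps origins fire, was at least 7.47-fold higher in spleen (limma adjusted p = 0.0323), and Dscc1, of an alternative clamp loader, at least 7.37-fold (0.0338). Asf1b, a histone chaperone, was at −2.30, −2.10 and −2.14 in hearts 1, 2 and 4 and at 2.29, 3.92 and 0.49 in spleens 1, 2 and 4. Its spleens kept the order of the set, and the difference was −4.42 ± 0.80 (limma adjusted p = 0.0182). Samhd1, which breaks down deoxynucleotides and is known to be active in cells outside the cycle, was at 0.44 and did not pass (limma adjusted p = 0.344). Without spleen 4, 15 of the 35 were called lower, against 9.84% of all genes. Without heart 1, heart 2 or heart 4 it was 1 each time, Timeless, so the calls of Ticrr, Dscc1 and Asf1b ended (lowest adjusted p 0.106, 0.0907 and 0.0761). Without spleen 1 or spleen 2 it was 3 each time. The calls of Ticrr and Dscc1 ended without spleen 1 (adjusted p 0.0716 and 0.0743) and without spleen 2 (0.0588 and 0.0736).

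Of 16 other genes of the G1 to S transition, 5 were called lower and 0 higher by limma (8 and 0 at an unadjusted p under 0.05), against 6.46% of all genes called lower, with a median of −0.62. Ccna2, the cyclin of S phase and G2, was at −3.16, −2.41 and −2.66 in hearts 1, 2 and 4 and at 2.95, 4.18 and 0.35 in spleens 1, 2 and 4, well apart, a difference of −5.24 ± 0.92 (limma adjusted p = 0.0171). Fbxo5, an inhibitor of the anaphase-promoting complex, differed by −4.09 (limma adjusted p = 0.0443), and Tfdp2, a partner of E2F proteins, by −2.67 (0.0209), or −2.32 with its 2 dim hearts held at the lowest level above background. Its relative Tfdp1 was at −1.31 and did not pass (0.0909). Each of the 5 calls ended when any single heart was dropped, the lowest limma adjusted p of these 3 fits being 0.0689 for Ccna2, 0.134 for Fbxo5 and 0.0595 for Tfdp2. The call of Fbxo5 also ended without spleen 1 (adjusted p 0.0955) and without spleen 2 (0.0770), and that of Tfdp2 without spleen 2 (0.0553).

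Mitosis genes, the step after S phase, had 13 of 16 called lower and 0 higher by limma (15 and 0 at an unadjusted p under 0.05), against 6.46% of all genes called lower, with a median of −4.52. The spindle genes Nusap1 and Kif11 were at least 40.6-fold (limma adjusted p = 0.0214) and at least 30.7-fold higher in spleen (0.0149), and Top2a, which untangles copied chromosomes, at least 37.3-fold (0.0205). All 3 were above background on every spleen and on none of the hearts. Cenpa, the centromeric histone, was at −0.76 and did not pass (limma adjusted p = 0.472). Each of the 13 calls ended when any single heart was dropped, the lowest limma adjusted p of these fits being 0.0621 for Nusap1, 0.0570 for Kif11 and 0.0753 for Top2a. Aurkb, not called over all arrays, was the one gene called without heart 4 (0.0478). Without spleen 1 the count was 8, without spleen 2 it was 12 and without spleen 4 it was 14. The median excess over the hearts for this list was 6.08 in spleen 2, 4.73 in spleen 1 and 2.62 in spleen 4, the order of the replication genes at a larger size. Whether the 2 lists differ was not tested.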

How the data were processed

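Spot intensity values were obtained by the authors with Agilent Feature Extraction 10.7.3.1, which also corrected them for background, per the submitters' processing notes and the file headers. The deposited value table holds log2 values, with a baseline per probe that is not given in the sources used here, and served as an alternative only. Between 54.0% and 64.3% of spots were well above background and 0 were saturated. The 75th percentile was 1557 to 1989 intensity units. The number of arrays limits the precision.

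Control and outlier spots were left out, log2 signals were centred on each array's 75th percentile and spots of a probe averaged. Of 39429 probes, 21801 had enough spots and, in 1 tissue or both, stood well above background on every array. A gene took its value from the brightest such probe. Names came from the files or, through 26412 probe accessions, from RefSeq. The tissues were compared by two-sided limma (3.58.1; lmFit, then eBayes) under R 4.3.3, files being read by data.table version 1.17.8, on code tested on simulated data. Figures used matplotlib 3.10.9 in Python 3.11.15. A fold given as "at least" sets the brighter tissue against a floor: on a dim array, the lowest level that any probe above background had there, or the probe's own if that is higher. SE is that of the moderated fit.

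All 54 genes are named. For each role, every array is given for the 2 genes with the lowest and the 1 with the highest adjusted p, and Tyms and Tk1 were added after their values were seen. Of each further list, the 3 called genes with the largest change and the brightest gene not called are named. The genes, lists and rules were chosen with earlier results of these data known. The labels do not say whether a heart and a spleen of the same number came from the same mouse. The correlations of same-numbered deviations were −0.0532, 0.0383 and 0.00929, and those of other pairs ran from −0.0706 to 0.0459. With so few arrays these values cannot settle the question. Nothing shows that organs came from separate animals beyond their being analysed individually, so p-values measure the spread between these samples.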

Additional observations from a re-analysis of the deposited data

How the results depend on the processing

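The number of genes called lower stayed within 1.5 times of 20 under quantile scaling, median scaling, normexp background correction, probes above background on all 6 arrays, the deposited value table, the mean over probes, slide as a random block, the date block, a trend and robust prior, array weights per tissue and the arrays of the earlier date, with 18 to 30 genes. With no filter on dim probes 11 were called lower and 0 higher (by limma, 39 of 54 at an unadjusted p under 0.05), and 1476 of all genes were called. With slide as a fixed block 0 were called lower and 0 higher (18 at an unadjusted p under 0.05), and 92 of all genes. With one array left out, 0 to 43 were called lower, 0 to 1 higher and 433 to 4024 of all genes. Tyms, the gene called higher, also lost its call within the earlier date (0 called) and under the replicate block.

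The fit with the replicate number as a block called 14 of the 51 genes lower, 0 higher and 1512 of all genes. Whether samples of the same number share a mouse is not known.

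Of 1252 comparisons of a single gene with its alternatives, over 63 genes, 1009 kept direction and side of the threshold, 174 lost the call, 55 gained one and 14 reversed. With slide as a fixed block the difference was 0.21 for Orc2, 0.15 for Orc6, 0.59 for Dbf4, 0.48 for Pola2, 0.08 for Pold2, 0.44 for Pcna, 0.13 for Fen1, 1.05 for Slbp, −0.13 for Samhd1 and 0.68 for Cenpa. Gins3 was at 0.00 with median scaling, E2f7 at −2.20 as the mean over its probes, and with one array left out Pcna ran from −0.39 to 0.19 and Slbp from −0.81 to 0.37. None of these was called as reported. With slide as a fixed block the difference is heart 1 minus spleen 4, the only heart and spleen on 1 slide, so those values describe that pair. The cause of the other changes was not tested. The median of all genes was 0.11 as reported, 0.22 with median scaling and 0.04 with quantile scaling, so a difference of that size rests on the scaling. Signal over background limits Cdc6 and Pole to a bound and leaves Orc1, Cdc7 and Ccne2 untested.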
